A study of Arabidopsis thaliana with 18 samples.

Results

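The comparison set polysome RNA of Arabidopsis thaliana seedlings after 4 h of white light against polysome RNA after 0.5 h of white light, so that it covers what was added to or lost from polysomes after the first 0.5 h. It uses 6 of the 18 arrays of the study, 3 for each light duration, chosen by their labels and paired by replicate number. The other 12 arrays hold polysome RNA of seedlings kept in darkness and the steady-state (total) RNA of all 3 light conditions, 3 arrays for each. All groups were Col-0 seedlings grown in darkness for 4 days on agar with half-strength Murashige and Skoog salts, and aerial parts were taken. The 4 h group and the 0.5 h group were moved to white light of 70 to 80 µmol per square metre per second for those times, and the dark group received none. Polysome RNA was separated on a sucrose gradient, and RNA of each sample was hybridised to 1 Affymetrix ATH1 array, whose probe sets each report a signal for 1 transcript or a few.

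Ribosomes that translate the same mRNA travel together as a polysome, so the RNA of the polysome fraction is a record of which transcripts are loaded with ribosomes at the time of harvest. A seedling that germinates in darkness elongates its hypocotyl, keeps its cotyledons closed and its plastids undeveloped, and lives on the oil and protein stored in the seed. Light starts de-etiolation: elongation slows, cotyledons open, chlorophyll is made and the photosynthetic machinery is assembled in the plastids from proteins encoded in the nucleus and in the plastid genome.

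The arrays had median signals between 152.7 and 205.6, and each had been scaled to the same trimmed mean, so that the signals carry nothing about overall polysome loading. Log2 signals of replicates correlated with Pearson's r of 0.943 to 0.951 among the 4 h polysome arrays and 0.937 to 0.958 among the 0.5 h polysome arrays. Of the marker genes chosen to check the labelled tissue, 6 had a gene name in the annotation used. The 4 aerial markers (LHCB4.1, SPCH, FMA and MUTE) had a summed signal of 16941 to 23284 in the 4 h polysome arrays and 8499 to 11007 in the 0.5 h polysome arrays, nearly all of it from LHCB4.1. The root-hair expansins EXPA7 and EXPA18 had a summed signal of 27.3 to 64.1 and 32.4 to 47.5 in those groups, and neither passed the filter on low signals. In such whole-tissue samples fewer cells of a type and less RNA per cell cannot be told apart.

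After 4 h, 2908 probe sets were higher and 3905 lower than after 0.5 h, out of 15922 tested, by limma's moderated test with Benjamini-Hochberg adjustment at 0.05 (n = 3 pairs). That is 18.3% of the probe sets higher, 24.5% lower and 42.8% changed in all, and every count of genes given here has to be read against these shares. A change of 2-fold or more was called for 1438 probe sets that were higher (9.03%) and 1306 that were lower (8.20%). Groups without overlap were common: 3188 of the 15922 probe sets had every 4 h value above every 0.5 h value, and 4141 the reverse. A lack of overlap in a named gene has to be read against these counts. The median change over all probe sets was -0.10 on the log2 scale, with a median standard error (SE) of 0.20. The preceding step was smaller by the same test: between darkness and 0.5 h of light, which shares the 0.5 h arrays, 357 probe sets (2.24%) were called in polysome RNA.

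**Figure D1:**
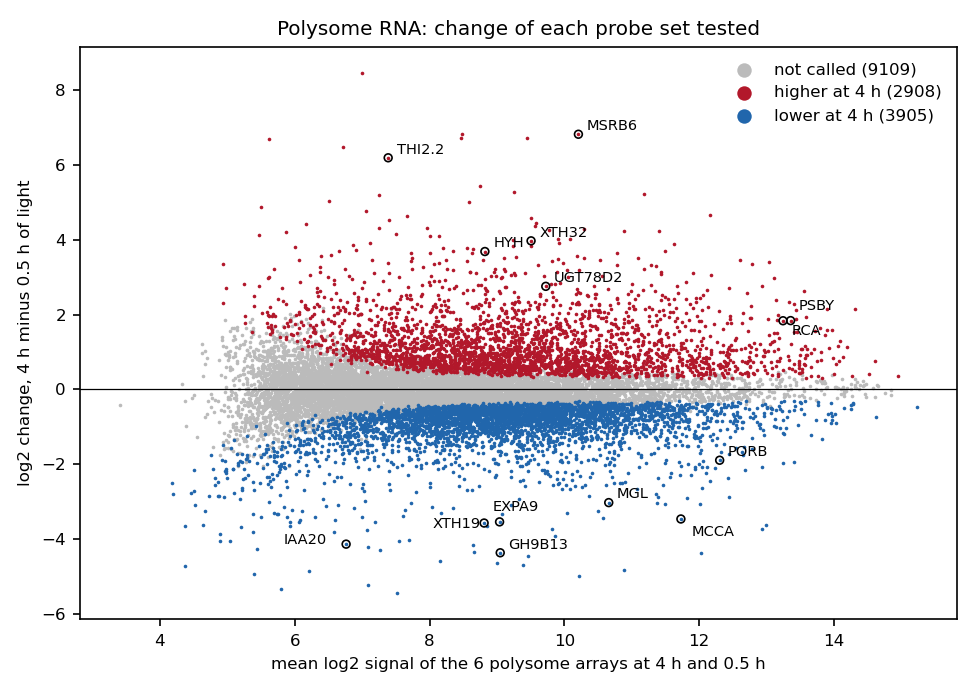
Each point is 1 of the 15922 probe sets tested, with the mean log2 signal of the 6 polysome arrays on the x axis and the log2 change of 4 h minus 0.5 h on the y axis. Red points were called higher at 4 h (2908), blue points lower (3905) and grey points not called; circles mark 14 genes that the text describes.

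Among probe sets that list 1 gene, the strongest gain after adding 32 to every signal belonged to MSRB6 (AT4G04840), a methionine sulfoxide reductase, an enzyme of a family that repairs oxidised methionine in proteins. Its polysome signal was 15861, 11217 and 11148 after 4 h, against 108, 75.3 and 170.3 after 0.5 h. The lowest 4 h array lay far above the highest 0.5 h array. The change was 6.82 ± 0.28 on the log2 scale (SE, n = 3; adjusted p = 2.51e-13), a 113-fold difference, and it was 6.44 with 32 added before the logarithm. Its neighbour MSRB5 (AT4G04830) rose by 0.97 ± 0.20 (adjusted p = 0.000451), whereas MSRB9, another member, was lower at 1669 ± 127 after 4 h against 7201 ± 2791 after 0.5 h (SD, n = 3 each; adjusted p = 1.49e-07). Of the 5 members tested 2 rose, 1 fell and 2 were not called.

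Other transcripts were near the lower end of the scale after 0.5 h and abundant on polysomes after 4 h. THI2.2 (AT5G36910), which encodes a thionin, a small cysteine-rich defence peptide, had signals of 2081, 1128 and 1243 after 4 h, against 15.2, 24.2 and 20.4 after 0.5 h. AT3G52740 had signals of 999, 868 and 1111 after 4 h, against 58.1, 2.6 and 9.2 after 0.5 h. AT1G60590 had the largest log2 change of any named gene, with signals of 2477, 2299.9 and 2433 after 4 h and 1.5, 3.3 and 64.8 after 0.5 h. In all 3 genes the groups were far apart, but a signal of a few units is within the noise of the array and the size of the ratio is poorly fixed: for AT1G60590 the change was 8.45 ± 0.81, and 5.65 with 32 added, and for AT3G52740 6.47 ± 0.86, and 4.34 with 32 added. Among the named genes, the largest gains in signal were those of PSAE-1, AT2G26500, AT1G13930, PSBY, AT3G47070 and RCA. AT3G47070 had signals of 16137, 16413 and 16916 after 4 h, against 2774, 2975 and 2503 after 0.5 h, a change of 2.59 ± 0.12 (adjusted p = 7.21e-13).

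**Figure D2:**
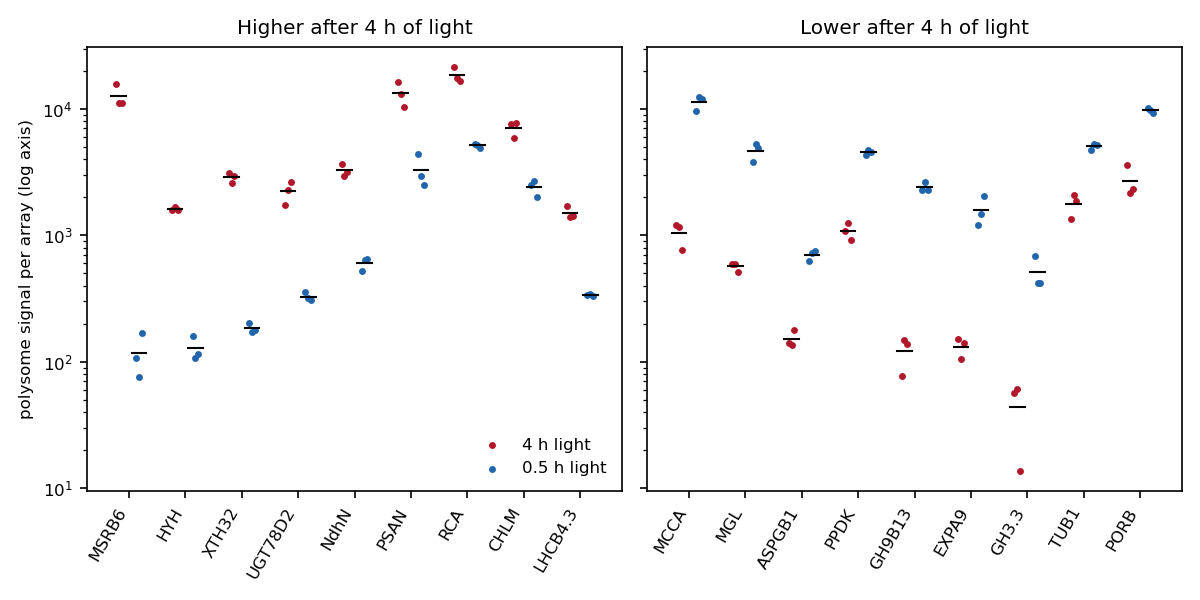
Polysome signal on a log axis for 9 genes that were higher after 4 h (left) and 9 that were lower (right); red points are the 3 arrays of 4 h, blue points the 3 arrays of 0.5 h, and black bars the group means. In none of these 18 genes do the groups overlap, but the rule that named the most raised and most lowered genes required this. Levels of different genes are not comparable, since each probe set has its own response.

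The nuclear-encoded subunits of the photosystems, the plastid NADH dehydrogenase-like (NDH) complex and the ATP synthase, with a few of their partners, were called higher for 10 of 14 members and lower for none, with a median log2 change of 1.14 against -0.10 over all probe sets. PSAN (AT5G64040), a photosystem I subunit on the luminal side, had signals of 16418, 13025 and 10329.7 after 4 h, against 4423, 2949 and 2487 after 0.5 h. The lowest 4 h value was more than double the highest 0.5 h value, and the change was 2.03 ± 0.15 (adjusted p = 5.06e-10). NdhN (AT5G58260), a subunit of the NDH complex, which carries electrons around photosystem I, had signals of 3659, 2958 and 3178 after 4 h and 526, 639 and 648 after 0.5 h, a change of 2.43 ± 0.17 (adjusted p = 3.00e-10). PSBY, a small membrane protein of photosystem II, averaged 19872 ± 1725 after 4 h and 5593 ± 922 after 0.5 h (SD, n = 3 each; change 1.84 ± 0.13, adjusted p = 2.73e-10). PSB27, which takes part in photosystem II assembly and repair, changed by 1.54 ± 0.15 (adjusted p = 5.17e-08). The 4 members not called were ATPC2, PGRL1B, PIFI and NdhS, with log2 changes of -0.38, 0.30, 0.14 and 0.26.

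The 3 LHCB4 genes, which encode the minor antenna protein CP29 of photosystem II, were all called higher, by unequal amounts. LHCB4.3 (AT2G40100) had signals of 1692, 1402 and 1429 after 4 h and 338, 344 and 333 after 0.5 h, which is a change of 2.15 ± 0.17 (adjusted p = 1.40e-09). LHCB4.1 (AT5G01530), which is also one of the aerial markers above, had signals of 22914, 19089 and 16548 after 4 h and 10875, 8549.5 and 8389.6 after 0.5 h, which is a change of 1.07 ± 0.15 (adjusted p = 8.39e-06). LHCB4.2 changed by 1.09 ± 0.13 (adjusted p = 6.26e-07). In each of the 3 genes the groups did not overlap.

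Of 4 genes of the Calvin cycle and photorespiration, 3 rose and none fell (median 1.59). RCA (AT2G39730), the chaperone that reactivates Rubisco, had signals of 21365, 17438 and 16473 after 4 h, against 5261, 5207 and 4932 after 0.5 h (change 1.84 ± 0.11, adjusted p = 3.74e-11). SBPASE, the sedoheptulose bisphosphatase of the cycle's regeneration phase, averaged 7885 ± 1564 after 4 h and 2434 ± 336 after 0.5 h (SD, n = 3 each; change 1.69 ± 0.12). HPR, the peroxisomal hydroxypyruvate reductase of photorespiration, averaged 15234 ± 3795 after 4 h and 5311 ± 767 after 0.5 h (adjusted p = 3.47e-07). PRK, the phosphoribulokinase of the Calvin cycle, was not called: its signals of 10745, 7928 and 7651 after 4 h overlapped with 7222, 10091 and 10106 after 0.5 h (change -0.06 ± 0.17, adjusted p = 0.814).

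Genes of chlorophyll and haem synthesis moved both ways, 6 of 12 higher and 4 lower. CHLM (AT4G25080), the methyltransferase that follows the magnesium chelatase step, had signals of 7584, 5929.9 and 7705 after 4 h, against 2520.5, 2684 and 2005 after 0.5 h (change 1.56 ± 0.16, adjusted p = 7.30e-08). CHLI2, a subunit of the magnesium chelatase, changed by 1.58 ± 0.16 (adjusted p = 9.29e-08). PORB (AT4G27440), the protochlorophyllide oxidoreductase that is one of the main forms in dark-grown seedlings, went the other way, with signals of 3625, 2142 and 2326 after 4 h and 10092, 9838 and 9289.7 after 0.5 h. All its 4 h values lay below all its 0.5 h values, and the change was -1.89 ± 0.15 (adjusted p = 1.63e-09). LIL3:1, a light-harvesting-like protein that anchors late enzymes of the pathway, rose by 1.18 ± 0.13, while its paralogue LIL3:2 was lower, by -0.56 ± 0.14 (adjusted p = 0.00191). HEME1 and HEME2, the uroporphyrinogen decarboxylases, rose by 1.16 and 1.03. The other genes that fell were HEMA2, a glutamyl-tRNA reductase, by -0.59, and hemf2, a coproporphyrinogen oxidase gene, with signals of 5.4, 17.0 and 24.7 after 4 h and 71.8, 92.9 and 151.5 after 0.5 h.

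Factors that build thylakoid complexes or process organelle RNA were higher for 15 of 23 members tested and lower for none (median 0.61). CRR42 (AT5G20935), which is needed for assembly of the NDH complex, had signals of 1256, 1379.9 and 1055 after 4 h and 234, 169 and 70.4 after 0.5 h, which is a change of 3.12 ± 0.29 (adjusted p = 1.78e-08). Cpn60beta2, a subunit of the plastid chaperonin, averaged 4942 ± 364 after 4 h and 1140.2 ± 261 after 0.5 h (SD, n = 3 each; change 2.14 ± 0.15). CCB3, which attaches a haem in the cytochrome b6f complex, changed by 1.96 ± 0.22. In the plastid thioredoxin and antioxidant system 7 of 13 rose and 1 fell (median 0.56). VTC4, an enzyme of ascorbate synthesis, changed by 2.79 ± 0.24 (adjusted p = 5.26e-09), TRXF2, a thioredoxin that activates Calvin cycle enzymes, by 1.94 ± 0.17, and NTRC, a plastid thioredoxin reductase, by 1.87 ± 0.14. The 1 member that fell was TY1, a y-type thioredoxin, by -0.68 ± 0.18 (adjusted p = 0.00382).

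Genes encoded in the plastid genome changed less, with a median of 0.26 over 69 genes: 20 were called higher, 1 lower and 48 not at all. The share called, 30.4%, was below the 42.8% of all probe sets. By direction, 20 of 69 were higher, against 18.3% of all probe sets, and 1 was lower, against 24.5%. psbC, which encodes the CP43 antenna of photosystem II, had signals of 7869, 11553 and 9839 after 4 h, against 3641, 5002 and 2824 after 0.5 h (change 1.37 ± 0.20, adjusted p = 1.13e-05). rbcL, the large subunit of Rubisco, had 2861, 4919 and 3580.4 after 4 h and 2133, 2264 and 1585 after 0.5 h (change 0.91 ± 0.17, adjusted p = 0.000163), so that its lowest 4 h value was above its highest 0.5 h value. psaA, one of the reaction-centre proteins of photosystem I, was the gene that fell, with signals of 421, 552 and 675 after 4 h, against 1416, 1095 and 1319 after 0.5 h (change -1.24 ± 0.23, adjusted p = 0.000175). The count of plastid genes called higher was 6 in a fit without the replicate block and 13 without 0.5 h replicate 3.

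**Figure D3:**
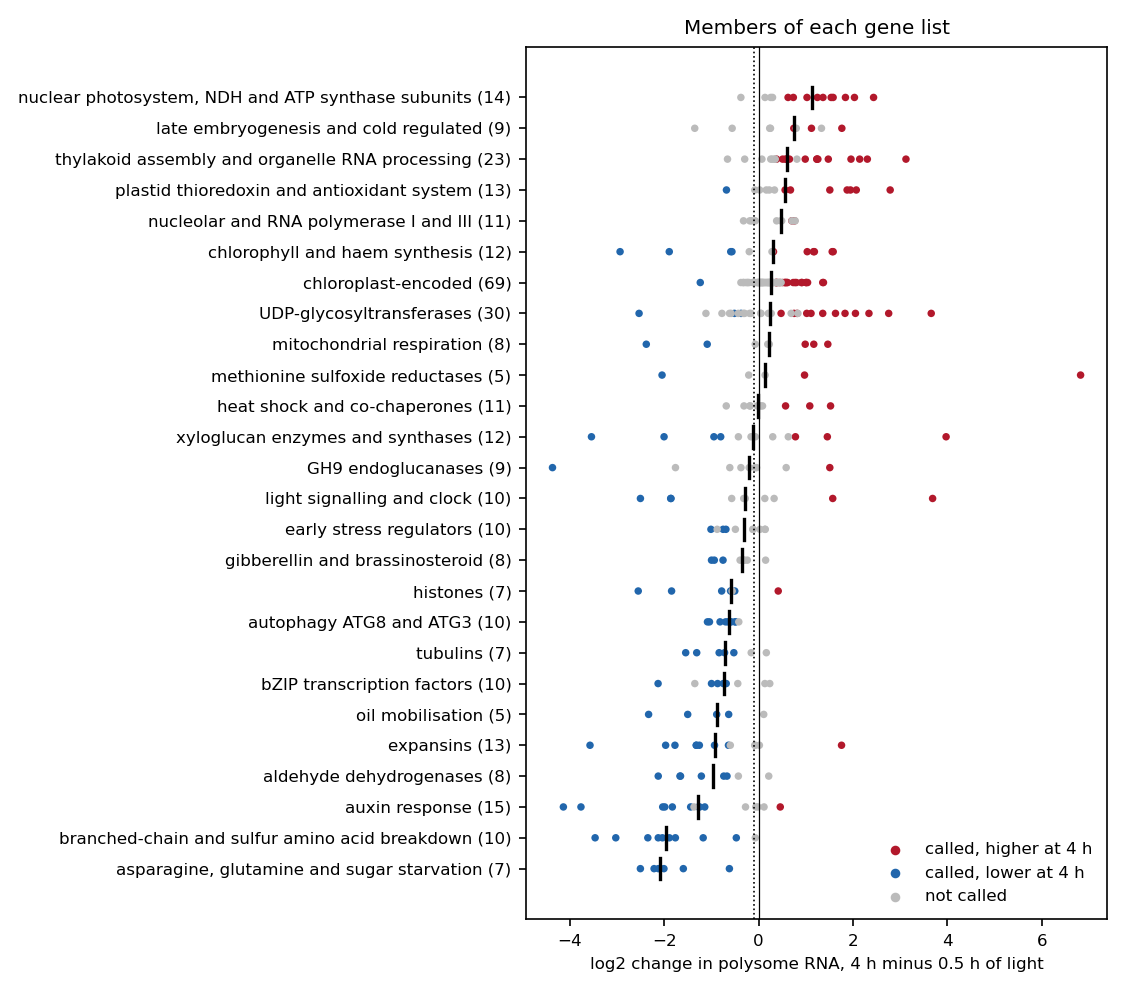
Log2 change of 4 h minus 0.5 h in polysome RNA for every tested member of the 26 gene lists with 5 or more tested probe sets, with the number tested in brackets. Red members were called higher, blue lower and grey not called; the thick bar is the list's median, the solid line 0 and the dotted line the median of all probe sets (-0.10). The list of nuclear photosystem, NDH and ATP synthase subunits lies at the top, followed by late-embryogenesis and cold-regulated genes. The lists for amino acid breakdown and starvation lie at the bottom.

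Of 10 regulators of the light response and the clock, 2 rose, 3 fell and 5 were not called, a share called close to the 42.8% of all probe sets. HYH (AT3G17609), a bZIP factor related to HY5, the activator of light-induced genes, had signals of 1597, 1688 and 1581 after 4 h, against 161, 107 and 116 after 0.5 h. The groups stood 12.9-fold apart, a change of 3.68 ± 0.28 (adjusted p = 8.96e-10). AFR, an F-box protein of phytochrome A signalling, averaged 1522 ± 64.6 after 4 h and 523 ± 134 after 0.5 h (SD, n = 3 each; change 1.57 ± 0.24). SPT, a bHLH factor that restrains cotyledon expansion, was lower at 264 ± 41.6 after 4 h against 947 ± 54.7 after 0.5 h (change -1.86 ± 0.18, adjusted p = 3.72e-08). COR27, a repressor of clock genes, had signals of 117, 109.6 and 97.0 after 4 h and 357, 819 and 774 after 0.5 h (change -2.50 ± 0.36, adjusted p = 8.23e-06). FHL, which helps to carry phytochrome A into the nucleus, was also lower (change -1.86 ± 0.31). GI, a large clock-associated protein, was not called, at 2282 ± 387 after 4 h and 1808 ± 225 after 0.5 h (adjusted p = 0.195), but was called in a fit of the compared arrays alone (adjusted p = 0.0446).

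UDP-glycosyltransferases, which attach sugars to hormones, flavonols and other small molecules, were higher for 12 of 30 members tested and lower for 3. UGT78D2 (AT5G17050), which makes flavonol 3-O-glucosides, had signals of 1748, 2299.5 and 2636 after 4 h, against 356, 317 and 306 after 0.5 h (change 2.75 ± 0.22, adjusted p = 2.25e-09). UGT78D1, which makes flavonol 3-O-rhamnosides, averaged 754 after 4 h and 63.5 after 0.5 h (change 3.66 ± 0.39, adjusted p = 1.66e-07). UGT74D1, which acts on auxins, rose by 2.34 ± 0.24. UGT72E1, an enzyme of monolignol glucosylation, was lower, at 49.3, 47.6 and 44.0 after 4 h and 266, 246 and 303 after 0.5 h (change -2.53 ± 0.23, or -1.94 with 32 added, adjusted p = 1.38e-08).

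In the stomatal lineage, STOMAGEN (AT4G12970), a mesophyll peptide that promotes stomatal development, had signals of 1907, 2707 and 2780.3 after 4 h, against 620.5, 999.8 and 634 after 0.5 h (change 1.73 ± 0.15, adjusted p = 1.12e-08). SPCH (AT5G53210), the bHLH factor that starts the lineage, had 195, 83.2 and 157 after 4 h and 47.4, 13.1 and 8.4 after 0.5 h, with no overlap (change 2.98 ± 0.70, or 1.70 with 32 added). FMA, which acts in the guard cells, was not called (change 0.53), and MUTE, which acts between them, did not pass the filter.

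The lists for growth and the cell wall differed in how many members fell. In the auxin list 9 of 15 members tested fell and 1 rose (median -1.27). IAA20 (AT2G46990), an Aux/IAA repressor, had signals of 11, 114 and 13.8 after 4 h, against 409, 445 and 517 after 0.5 h (change -4.13 ± 0.45, or -2.88 with 32 added). GH3.3 (AT2G23170), an enzyme that conjugates auxin to amino acids, had 57.1, 61.4 and 13.7 after 4 h and 692, 416 and 416 after 0.5 h (change -3.76 ± 0.38, or -2.86 with 32 added, adjusted p = 6.16e-08). In both genes every 4 h array was below every 0.5 h array. WES1, another GH3 enzyme, averaged 885 ± 70.8 after 4 h and 3134 ± 131 after 0.5 h (SD, n = 3 each; change -1.83 ± 0.17), and ARL, which promotes cell expansion, changed by -2.03 ± 0.17. GH3.17 was the member that rose, by 0.46 ± 0.16 (adjusted p = 0.0213), and over the alternatives tried 0 or 1 members were called higher and 8 to 10 lower.

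Expansins, which loosen cell walls, fell for 8 of 13 members tested and rose for 1 (median -0.93). EXPA9 (AT5G02260) had signals of 150.5, 104 and 141 after 4 h, against 1217, 1478 and 2052 after 0.5 h (change -3.57 ± 0.19, adjusted p = 6.19e-12). EXPA4 averaged 375 ± 19.3 after 4 h and 1301 ± 299.5 after 0.5 h (SD, n = 3 each; change -1.77 ± 0.15). EXPB3, a beta-expansin, was the member that rose, with 655, 372 and 483 after 4 h and 100.8, 181 and 168 after 0.5 h (change 1.76 ± 0.31). Among 9 GH9 endoglucanases tested, enzymes that cut wall glucans, GH9B13 fell, GH9B8 rose and 7 were not called. The share called was 22.2%, against 42.8% of all probe sets. GH9B13 (AT4G02290) had 76.7, 149 and 139 after 4 h, against 2278, 2654 and 2293 after 0.5 h, a 20.6-fold difference (change -4.36 ± 0.23, adjusted p = 4.01e-12). GH9B8 changed by 1.51 ± 0.26 (adjusted p = 6.86e-05).

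Of 12 xyloglucan enzymes tested 3 rose and 4 fell. XTH32 (AT2G36870), a xyloglucan endotransglucosylase/hydrolase, had signals of 3106, 2587 and 2965 after 4 h, against 203, 172 and 178 after 0.5 h (change 3.97 ± 0.15, adjusted p = 1.12e-13). XTH19 (AT4G30290), of the same family, had 99.9, 214 and 171 after 4 h and 1932, 1659 and 1798 after 0.5 h (change -3.54 ± 0.27, adjusted p = 1.07e-09), and its neighbour XTH18 had 202, 487 and 601 after 4 h and 1529, 1564 and 1592 after 0.5 h (adjusted p = 2.57e-06). The groups did not overlap in XTH32 or XTH19, which changed in opposite directions. Tubulins, the subunits of microtubules, fell for 5 of 7 members and rose for none (median -0.72), with TUB1 at 1766 ± 376 after 4 h and 5073 ± 296 after 0.5 h (SD, n = 3 each; change -1.54 ± 0.17). Of 8 genes of gibberellin and brassinosteroid signalling, SPY, which represses gibberellin responses, fell by 0.94 on the log2 scale and BIM1, a partner of brassinosteroid factors, by 0.75. The gibberellin receptor GID1C also fell, averaging 155 ± 43.8 after 4 h and 322 ± 141 after 0.5 h (SD, n = 3 each; adjusted p = 0.000566), and no member rose. Among histones 5 of 7 fell and 1 rose. The linker histone HIS1-3, known from stressed plants, had 235, 499 and 454 after 4 h and 1355, 2440.0 and 3224 after 0.5 h (change -2.55 ± 0.18, adjusted p = 3.23e-10).

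Of the 10 listed genes for breaking down branched-chain and sulfur amino acids, 9 were lower on polysomes and none higher, with a median of -1.96. In steady-state RNA 8 of them were also called lower and none higher (median -1.78). MCCA (AT1G03090), a subunit of methylcrotonyl-CoA carboxylase in leucine breakdown, had signals of 1202, 1153 and 769.9 after 4 h, against 9593, 12359 and 12042 after 0.5 h (change -3.46 ± 0.18, adjusted p = 4.64e-12). MCCB, the other subunit, had 1373, 1413 and 1264 after 4 h and 5317, 7642 and 7921 after 0.5 h (change -2.35 ± 0.20). In both subunits the highest 4 h value was far below the lowest 0.5 h value. IVD, the dehydrogenase of the step before, changed by -1.89 ± 0.17, and ETFQO, which passes its electrons to the respiratory chain, by -2.04 ± 0.17. MGL (AT1G64660), the methionine gamma-lyase, had 598, 588 and 516 after 4 h and 3799, 5270.5 and 4885 after 0.5 h (change -3.02 ± 0.14, adjusted p = 9.55e-13). The transaminase ATBCAT-5 was the member not called, with a change of -0.07.

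All 7 probe sets, for 6 genes, of the list for asparagine, glutamine and sugar starvation were lower (median -2.08). GAT1_2.1 (AT1G15040), a glutamine amidotransferase-like hydrolase, had signals of 319.9, 524 and 399.8 after 4 h on the first of its 2 probe sets, against 1665, 2610.0 and 2808 after 0.5 h (change -2.50 ± 0.17, adjusted p = 1.53e-10), and the second probe set gave -2.12, or -0.94 with 32 added. ASPGB1, an asparaginase, had 140.5, 137 and 179 after 4 h and 630.2, 726 and 749.5 after 0.5 h (change -2.21 ± 0.25). PPDK, the pyruvate orthophosphate dikinase that remobilises carbon from amino acids, averaged 1081 ± 169 after 4 h and 4544 ± 181 after 0.5 h (SD, n = 3 each; change -2.08 ± 0.13). AKINBETA1, a regulatory subunit of the energy-sensing kinase SnRK1, averaged 1841 ± 350 after 4 h and 7325 ± 754 after 0.5 h (adjusted p = 2.15e-09).

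Related groups fell as well, by smaller amounts. Autophagy genes of the ATG8 family and ATG3 were lower for 9 of 10 members (median -0.62), with ATG8F at 5649.9, 5127 and 5174 after 4 h and 9568, 12209.6 and 11161 after 0.5 h (change -1.04 ± 0.14, adjusted p = 3.39e-06). Among aldehyde dehydrogenases 6 of 8 fell and none rose (median -0.97). ALDH7B4, which detoxifies aldehydes in stressed plants, averaged 3567 ± 299 after 4 h and 11292 ± 587 after 0.5 h (SD, n = 3 each; change -1.66 ± 0.12). Of 5 genes of oil storage and mobilisation 4 fell. OLEO3, an oil body coat protein, had 546, 959 and 786 after 4 h and 3473, 4483 and 3356 after 0.5 h (change -2.33 ± 0.16), and ICL, the isocitrate lyase of the glyoxylate cycle, changed by -1.50 ± 0.16. Of 10 factors tested whose symbol is bZIP with a number, 6 fell and none rose; HYH, a bZIP factor that rose, is counted with the light regulators. The 6 included BZIP28 and BZIP60, which act in the stress response of the endoplasmic reticulum. BZIP28 averaged 636 ± 86.3 after 4 h and 1269 ± 154 after 0.5 h (SD, n = 3 each; adjusted p = 5.27e-05), and BZIP60 changed by -0.69 ± 0.16.

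Not every stress or housekeeping list declined. Of 9 late-embryogenesis and cold-regulated genes 3 rose and none fell, led by the dehydrin LTI30 at 3069 ± 483 after 4 h and 912 ± 204 after 0.5 h (SD, n = 3 each; change 1.76 ± 0.16, adjusted p = 1.61e-08). In that list 2 or 3 members were called higher and 0 or 1 lower over the alternatives tried. Its member LEA4-5 (0.75) lost its call without the replicate block, without 4 h replicate 2 and without 0.5 h replicate 2. The share called was 33.3% in that list and 27.3% among heat-shock genes and co-chaperones, against 42.8% of all probe sets. Among heat-shock genes and co-chaperones 3 of 11 were called higher. Of these, Hsp70-2, at 873 ± 242 after 4 h and 403 ± 67.6 after 0.5 h (change 1.08 ± 0.18), was called in every alternative tried, whereas Fes1A (0.57) and ATJ1 (1.52, or 0.82 with 32 added) lost their calls without 4 h replicate 1 or 2 and without 0.5 h replicate 3. In mitochondrial respiration 3 of 8 rose and 2 fell. SDH2-1, the iron-sulfur subunit of succinate dehydrogenase, averaged 3797 ± 530.2 after 4 h and 1369 ± 116 after 0.5 h (change 1.47 ± 0.15), while NDB1, an alternative NADPH dehydrogenase, changed by -1.09 ± 0.22. Of 11 nucleolar and RNA polymerase I and III genes 2 rose, NRPA2 by 0.76 ± 0.19 and IMP4 by 0.70 ± 0.20. That is 18.2% of the list, against 18.3% of all probe sets called higher.

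The dark arrays place these changes in time; since the step up to 0.5 h and the step after it share the 0.5 h arrays, the values are given side by side. MCCA and HYH were not called at the first step. MCCA averaged 11723 ± 1732 in darkness, 11331 ± 1514 at 0.5 h and 1042 ± 237 at 4 h (SD, n = 3 each). HYH averaged 91.4 ± 24.5 in darkness, 128 ± 28.8 at 0.5 h and 1622 ± 57.7 at 4 h. A few genes had moved by 0.5 h and went on the same way. UGT78D2 averaged 125 ± 20.9, 326 ± 26.5 and 2228 ± 448 at the 3 times, with a first step of 1.39 (adjusted p = 0.000456), and Cpn60beta2 averaged 526 ± 187, 1140.2 ± 261 and 4942 ± 364, with a first step of 1.15 (adjusted p = 6.14e-05). AT5G62280 declined at both steps, with 5428 ± 1759.8, 2022 ± 476 and 400.5 ± 70.7.

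Other genes turned or stopped after 0.5 h. STZ (AT1G27730), a zinc-finger repressor induced by many stresses, averaged 108 ± 48.8 in darkness, 556 ± 43.4 at 0.5 h and 279 ± 46.5 at 4 h. Its signals of 228, 288 and 319.9 after 4 h all lay below 599.5, 513 and 557 after 0.5 h (change -1.01 ± 0.27, adjusted p = 0.00452, or 0.0512 without 0.5 h replicate 1). AT3G15570 did the opposite, with 214 ± 63.6 in darkness, 33.9 ± 23.3 at 0.5 h and 923 ± 106 at 4 h (later change 5.19 ± 0.47, or 3.92 with 32 added, adjusted p = 1.32e-08). IAA29 (AT4G32280), an Aux/IAA gene that is high in shade and darkness, averaged 845 ± 169 in darkness, 131 ± 16.3 at 0.5 h and 142 ± 18.3 at 4 h, so that its first step was -2.67 and its later change 0.11 ± 0.23 (adjusted p = 0.722). Among 10 early stress regulators 3 were lower after 4 h than after 0.5 h, STZ, PUB22 and WRKY22, and none higher, a share close to the 24.5% of all probe sets that were lower. The count that fell ran between 1 and 4 over the alternatives. The calls of PUB22 (-0.75) and WRKY22 (-0.69) were lost without the replicate block, and both were lost without 4 h replicate 3.

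**Figure D4:**
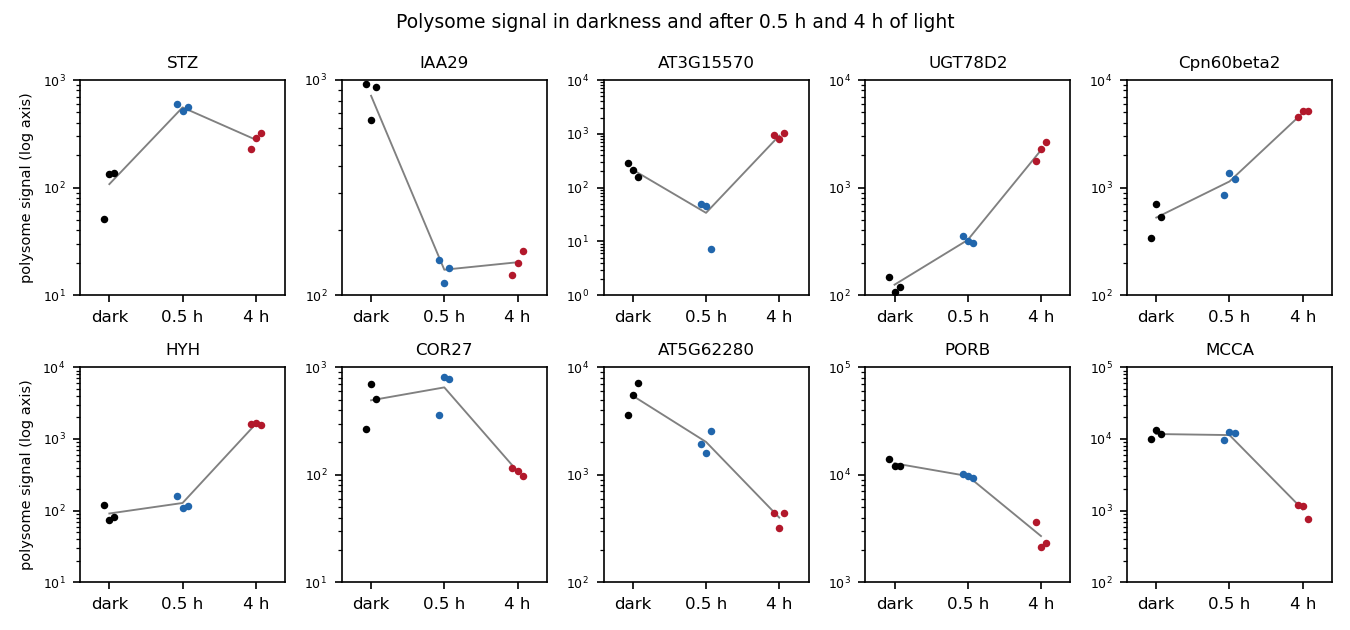
Polysome signal on log axes (a different range in each panel) in darkness (black), after 0.5 h (blue) and after 4 h (red) of light, 3 arrays each, with lines through the group means. STZ peaks at 0.5 h, IAA29 is low at both light times, AT3G15570 dips at 0.5 h, UGT78D2 and Cpn60beta2 climb at both steps, and HYH and MCCA were called at the second step and not at the first.

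The first responders in steady-state RNA, chosen on arrays that the polysome comparison does not use, did not move as one group. Of 101 probe sets that were 2-fold or more higher in steady-state RNA at 0.5 h than in darkness, 41 were higher in polysome RNA at 4 h than at 0.5 h, 37 lower and 23 not called, with a median of -0.03 (0.03 with arrays centred on a common median). These shares, 40.6% and 36.6%, compare with 18.3% and 24.5% of all probe sets. Of 95 probe sets that were lower in steady-state RNA at 0.5 h, 48 were lower in polysome RNA at 4 h, 11 higher and 36 not called (median -0.59). AT3G56290, one of the early risers, went on to 5420.4, 5433 and 5661 after 4 h, against 455, 196 and 254 after 0.5 h (change 4.28 ± 0.21). AT1G76240, one of the early fallers, had 134, 179.8 and 223 after 4 h and 1179, 978 and 987 after 0.5 h (change -2.58 ± 0.22).

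The steady-state arrays of the same light times show how far the polysome changes were shared by total RNA. In steady-state RNA 6764 probe sets (42.5%) were called between 4 h and 0.5 h. Of the 2908 probe sets higher on polysomes 2250 were also called higher in steady-state RNA, which is 77.4% of the polysome list and 69.4% of the steady-state list. Of the 3905 lower on polysomes 2612 were also called lower in steady-state RNA, 66.9% and 74.2% of the lists. MSRB6 changed by 6.59 in steady-state RNA and 6.82 in polysome RNA, and MCCA by -3.07 and -3.46. Opposite calls were rare: 20 probe sets were higher in polysome RNA and lower in steady-state RNA, and 6 the other way round.

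The difference between both changes was itself tested as an interaction in the same limma fit. It was called for 84 probe sets (0.528%) with a higher change in polysome RNA and 47 (0.295%) with a lower one, and 2234 had an unadjusted p under 0.05. This count depends on the fit: without the replicate block it was 3, and leaving out 1 array it ran between 20 and 1062. With each array centred on a common median it was 168, with 16.7% of the calls lower in polysome RNA in place of 35.9%. The named genes below are to be read with that in mind.

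AT2G26500 was called in the main fit and in each of the 20 alternatives. It had polysome signals of 25773, 24582 and 22296 after 4 h, against 6987, 6342 and 5592 after 0.5 h, and steady-state signals of 19930.0, 17220.1 and 18568 after 4 h, against 10423, 11320.0 and 12258 after 0.5 h. Both fractions rose with no overlap, by 1.94 in polysome RNA and 0.71 in steady-state RNA, and the difference was 1.23 ± 0.17 (adjusted p = 0.00106). STOMAGEN had steady-state signals of 1146, 1993 and 1676 after 4 h, against 742, 1372 and 1408 after 0.5 h, which overlap. Its rise there was 0.47, which was called (limma, adjusted p = 0.0175). On polysomes its rise was 1.73 (difference 1.26 ± 0.22, adjusted p = 0.00973). Without the replicate block the adjusted p of the difference was 0.403. ULT1, a SAND-domain regulator of flower and chromatin state, and RALFL32, a RALF-like secreted peptide, were singled out after their values had been seen. ULT1 changed by 3.11 in polysome RNA and 1.87 in steady-state RNA (difference 1.23 ± 0.24, adjusted p = 0.0176), and RALFL32 by 1.31 and 0.03 (difference 1.28 ± 0.24, adjusted p = 0.0166).

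Lower changes in polysome RNA than in steady-state RNA were called for 3 plastid-encoded genes. psaA fell on polysomes, as given above, while its steady-state signals were 5643, 7011 and 3978 after 4 h and 4110.4, 4927 and 2323 after 0.5 h. That change of 0.58 was called (limma, adjusted p = 0.0478), so that psaA is among the opposite calls. Its difference was -1.82 ± 0.33 (adjusted p = 0.0110). psbB, the CP47 antenna of photosystem II, had polysome signals of 1702, 2539 and 1481 after 4 h and 1318, 2988 and 835 after 0.5 h, which overlap. Its steady-state signals were 4446, 10603 and 5226 after 4 h and 1013, 3362 and 1050.2 after 0.5 h, so that it changed by 2.04 there and by 0.32 on polysomes (difference -1.71 ± 0.36, adjusted p = 0.0281). psbT, which lies next to psbB in the same operon, changed by 1.85 in steady-state RNA and 0.22 in polysome RNA (difference -1.63 ± 0.36, adjusted p = 0.0342). In steady-state RNA psbB had been called lower at 0.5 h than in darkness, by -0.99 (limma, adjusted p = 0.0387). At that step psaA and psbT were not called. Without the replicate block none of the 3 differences was called (adjusted p = 0.126 for psaA, 0.567 for psbB and 0.638 for psbT). Over the 20 alternatives tried, psaA kept its call in 17, psbB in 10 and psbT in 9. The other 66 plastid genes had no called difference.

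**Figure D5:**
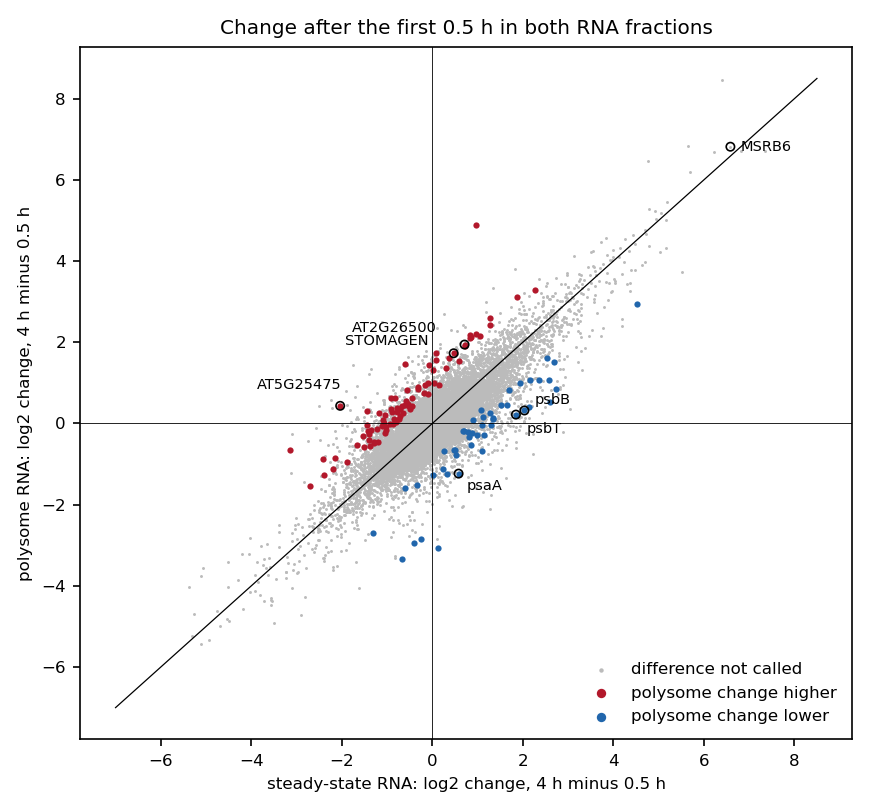
Log2 change of 4 h minus 0.5 h in polysome RNA (y axis) against that in steady-state RNA (x axis) for the 15922 probe sets tested, with the line of equal change. Red points (84) had a called difference with a higher change in polysome RNA, blue points (47) a lower one; most probe sets, MSRB6 among them, lie near the line.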

How the data were processed

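The values used are linear MAS5 signal intensities that the authors deposited for each of 22810 probe sets on 18 Affymetrix ATH1 arrays; MAS5 is named in the submitters' processing notes, while its version and the genome build of the array annotation are unstated there. The scanner files were not used here. Signals under 1 were set to 1 and log2-transformed, 64 control probe sets were left out, and the 15922 probe sets with a mean log2 signal at or above the 30th percentile were tested. A linear model with 6 group means and the replicate number as a block was fitted to all arrays with limma 3.58.1 in R 4.3.3 (eBayes with an intensity trend), and p-values were adjusted by the Benjamini-Hochberg method over all probe sets tested. The labels call the replicates biological without saying what a number shares. The numbers were taken as pairs from the outset, and polysome arrays with an equal number deviated alike from their group means. The deviations correlated at 0.151 to 0.315 in every such pair of 4 h and 0.5 h polysome arrays. For different numbers the range was -0.252 to -0.0273. Deviations from a group mean cancel within the group, so the range for different numbers is not separate support. The steady-state arrays, which the block covers too, were not checked in this way. SE is that of the log2 change, and SD is that of the 3 signals. The fit was tested on simulated data, and the outcome is not reported here. The number of arrays limits the precision.

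The platform annotation gave 1 gene for 13513 probe sets, several for 503 and none for 8730. Only 1221 of the tested probe sets had a symbol other than the locus ID, so that lists cover only genes with a symbol or a plastid locus; lists planned for ribosomal proteins, aminoacyl-tRNA synthetases, proteasome subunits and most cell type markers were not analysed here. The 31 lists were regrouped by symbol after values of this comparison had been seen, and the comparison, members and lists were chosen with earlier results of these data known; they are descriptions. Named genes are, from probe sets with 1 gene, the 12 most raised and 12 most lowered by log2(signal + 32) with a called 2-fold change and no overlap, the 6 largest gains and losses of signal, the 6 largest called interaction differences each way, up to 4 members of a list by adjusted p, up to 4 early steady-state movers each way, and a set of fixed light-response genes. Others were singled out after their values had been seen: any further list member, and the opposite or interaction calls outside the 6. Close paralogues, such as MSRB5 and MSRB6 or XTH18 and XTH19, can share signal. Promoter sequences were not used here. Alternatives left out the block, fitted only the compared arrays, changed normalization, filter, added value and variance prior, or left out each array.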

Additional observations from a re-analysis of the deposited data

Results flagged for a closer look

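For 14 of the genes named by the stated rules, the change between 0.5 h and 4 h differed between polysome and steady-state RNA by the interaction test of limma. Values are the polysome change minus the steady-state change on the log2 scale. Higher changes in polysome RNA were those of AT5G50335 (2.49), AT5G25475 (2.47), AT1G58150 (2.06), AT3G50790 (1.65), AT5G64130 (1.45), AT5G05710 (1.45), STOMAGEN (1.26) and AT2G26500 (1.23). Lower changes were those of AT5G15780 (-2.07), AT2G36630 (-1.89), psaA (-1.82), AT1G01320 (-1.75), psbB (-1.71) and psbT (-1.63). Each kept its direction in all alternatives tried, and AT2G26500 alone kept its call in all of them. The call of each of the other 13 was lost without the replicate block, where adjusted p ran between 0.124 (AT5G05710) and 0.638 (psbT). Several were lost in many other alternatives too. AT5G50335 kept its call in 8 of 19, AT3G50790 in 8 of 20 and psbT in 9 of 20. psbB kept it in 10 of 20, AT1G01320 in 11 of 20 and AT5G15780 in 12 of 20. The rest kept it in 16 of 20 (AT2G36630) or more. Outside the 14, ULT1 and RALFL32 were called, as given above. So were hemf2 (-2.53, or -1.18 with 32 added, adjusted p = 0.0341) and LIL3:2 (0.81, adjusted p = 0.0490). Without the replicate block 3 differences were called, none of them lower in polysome RNA, so that the call of hemf2 was lost there. LIL3:2 fell by more in steady-state RNA (-1.37) than in polysome RNA (-0.56), and hemf2 by less (-0.41 against -2.93). The polysome change of hemf2, whose 4 h signals were low, was -1.51 with 32 added.

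AT5G25475, AT5G50335, AT5G05710, AT5G15780, AT1G01320, psbB and psbT were called in the interaction but not in polysome RNA itself. Of these, AT5G15780, AT1G01320, psbB and psbT rose in steady-state RNA, by 2.59, 2.15, 2.04 and 1.85. AT5G25475 had polysome signals of 95.9, 117 and 169.8 after 4 h and 50.5, 140.0 and 109 after 0.5 h, which overlap, and steady-state signals of 39.1, 44.9 and 58.8 after 4 h and 149, 199 and 240.2 after 0.5 h, which do not. AT5G05710 averaged 927 ± 93.4 after 4 h and 773 ± 43.8 after 0.5 h in polysome RNA (SD, n = 3 each), against 514, 615 and 654 after 4 h and 876, 1574 and 1772 after 0.5 h in steady-state RNA. AT2G36630 was at 169, 233 and 472 after 4 h and 130.3, 128 and 194 after 0.5 h in polysome RNA, where its call was lost without 4 h replicate 3 and without 0.5 h replicate 2, against 938, 1339 and 1228 after 4 h and 129, 185 and 221 after 0.5 h in steady-state RNA.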

How the results depend on the processing

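The number of probe sets called in polysome RNA ran between 5319 (no replicate block) and 7045 (compared arrays alone), against 6813, and the steady-state count stayed within 1.5 times of its own. The interaction count of 131 became 3 in the fit without the replicate block, 47 with the compared arrays alone and 26 without the intensity trend. Leaving out 1 array gave 20 (without 0.5 h polysome replicate 3) to 1062 (without 0.5 h steady-state replicate 1) interaction calls, and each array but 4 h polysome replicate 3 and 0.5 h polysome replicate 1 moved the count by over 1.5 times; the cause was not tested. Centring each array on a common median moved the interaction median by 0.11. Of 137 named probe sets called in polysome RNA, 127 kept their call in every alternative; ATG8E, PUB22, WRKY22, Fes1A, IMP4, LEA4-5, ATJ1, AT2G36630, AT5G64130 and STZ did not. Values near 0 turned round. Under the stricter filter the nucleolar median was -0.11 and that of early steady-state risers 0.39. Leaving out 1 polysome array of either time, the medians ran between -0.31 and 0.32 (without 4 h replicate 1) for xyloglucan enzymes, -0.11 and 0.085 (without 0.5 h replicate 1) for heat-shock genes, and -0.065 and 0.11 (without 0.5 h replicate 1) for early risers. In the same way psbT ran between -0.16 (without 4 h replicate 1) and 0.49, and IAA29 between -0.012 (without 4 h replicate 2) and 0.24. The planned comparison of promoter windows was not run, since promoter sequences were not used here. Signals of a few units bear no exact ratio, and 1 array a sample leaves array and sample variation mixed.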
